A study of Mus musculus with 8 samples.

Results

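Csn3 encodes kappa-casein, a milk protein, and it was followed here in mouse pancreatic islets together with 7 genes of prolactin and growth hormone signalling: the receptor genes Prlr and Ghr, the kinase gene Jak2, the transcription factor genes Stat5a and Stat5b, and the feedback inhibitor genes Socs2 and Cish. Of these 8 genes, 7 had a probe set that names a single gene in the probe annotation, among 18193 such genes in all, and 18 probe sets named 1 of the 7. Prlr was named by no probe set in that annotation and was not analysed here. Csn3 was chosen from measured values, its large genotype difference in untreated mice, and the other 7 genes were chosen by function with earlier results of these data known. That contrast is therefore described for these genes without a test. Tests are given for the contrasts it did not use, and for Csn3 only where the untreated Irs2-/- arrays do not enter the comparison.

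The islets came from male C57Bl/6 mice aged 13 weeks, which had drunk distilled water with or without sodium tungstate for the last 21 days. The 4 groups, each with 2 samples described as independent and 1 array per sample, were Irs2-/- on tungstate, Irs2-/- untreated, wild type on tungstate and wild type untreated. Irs2 is an adaptor of the insulin and IGF-1 receptors, its loss is used as a mouse model of failing beta cells, and tungstate is studied as an oral glucose-lowering salt. The tungstate dose is unsettled, since the design text writes 2 mg/ml and the labels of the samples write 2 mg/dl. How many mice went into a sample was not stated. P-values then measure only the spread between these samples.

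Prolactin and growth hormone bind related single-chain receptors that activate the kinase JAK2, which phosphorylates STAT5A and STAT5B. The STAT5 proteins then switch on target genes, among them the caseins in the mammary gland and the inhibitors Cish and Socs2, which dampen the signal. In rodent islets this pathway is known for the growth of beta cell mass in pregnancy, when placental lactogens act on the prolactin receptor and raise Tph1, the enzyme that starts serotonin synthesis.

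All values are log2 expression, where 1 unit is a 2-fold step. Each gene stands for its brightest probe set by mean level, and 13369 genes with a mean of at least 5.27, the 40th percentile of the probe sets, were tested. All 7 measured genes lay above that level, Csn3 only through its Irs2-/- arrays. Irs2 read 4.54 to 4.89 on the 4 Irs2-/- arrays, against 7.61 to 7.91 on the 4 wild-type arrays, as labelled. The islet hormone genes Ins2 and Gcg read above 14 on every array, which are defining genes of the tissue named. Cell mixture differed between arrays: the mean of 14 macrophage markers was 7.46 and 7.54 (Irs2-/-, tungstate), 8.60 and 8.71 (Irs2-/-, untreated), 7.20 and 7.09 (wild type, tungstate) and 7.39 and 7.09 (wild type, untreated). The mean of 13 acinar markers ran from 9.53 to 12.73 over all arrays, and that of 13 lymphocyte markers from 5.49 to 8.47.

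Csn3 was high in islets without Irs2 and lower in those of them that received tungstate. Its brighter probe set, 1419735_at, read 8.56 and 7.08 in Irs2-/- islets on tungstate and 10.52 and 10.62 in untreated Irs2-/- islets. It read 4.99 and 4.94 in wild-type islets on tungstate and 4.86 and 4.91 in untreated wild-type islets. All 4 Irs2-/- arrays lay above all 4 wild-type arrays, and both Irs2-/- arrays on tungstate lay below both untreated ones. The wild-type values are all below 5.27, so a fold against them is not an exact size.

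In the order of the group means, untreated Irs2-/- islets came first at 10.57 ± 0.07 (SD, n = 2), then Irs2-/- islets on tungstate at 7.82 ± 1.05. The treated wild-type mean of 4.965 ± 0.04 and the untreated wild-type mean of 4.88 ± 0.03 came last. The difference that chose the gene, untreated Irs2-/- minus untreated wild type, was 5.69, the rank 2 of 13369 genes. Tungstate minus untreated in Irs2-/- islets was -2.75 for Csn3, which shares the untreated Irs2-/- arrays with the choice and is given without a test. The same difference in wild-type islets was 0.08. Both wild-type groups lie below the filter level, and the SE of 0.39 pools the wide spread of the treated Irs2-/- arrays, so the order of these 2 groups is not settled and nothing is read from a test between them.

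The treated mice hold the comparison of genotypes on arrays that the choice did not use. Csn3 was 2.86 ± 0.39 higher in Irs2-/- than in wild-type islets when both had received tungstate (95% interval 1.96 to 3.75, limma adjusted p = 0.0265). Csn3 is above the filter level only through its Irs2-/- arrays, so the size of this difference is not exact, and without any filter the adjusted p from limma was 0.0257. The SE pools the spread of all 4 groups, and the treated Irs2-/- arrays themselves had an SD of 1.05. This SE thus also rests on the untreated arrays that chose Csn3, with SDs of 0.07 in Irs2-/- and 0.03 in wild-type islets. Nothing further is read from this p-value. The call was lost on the 4 treated arrays alone (limma adjusted p = 0.0502), with the lymphocyte marker level as a covariate (0.0649) and without treated wild-type replicate 1 (0.233) or 2 (0.191), at differences of 2.83 to 2.97. The Csn3 difference was 2.12 without treated Irs2-/- replicate 1 and 3.6 without replicate 2. Endothelial and fibroblast markers were higher in the same comparison. The mean of 13 endothelial markers was 8.52 and 8.07 in treated Irs2-/- islets, against 7.43 and 7.55 in treated wild-type islets. Of 12 tested endothelial markers 3 passed, all higher, against 0.636% of all genes. Vwf, 1 of these 3, had wild-type means of 4.43 treated and 5.05 untreated, under the filter level. It was tested only through its Irs2-/- arrays, so nothing further is read from this count. The mean of 12 fibroblast and stellate markers was 8.47 and 8.02 in treated Irs2-/- islets, against 6.67 and 6.94 in treated wild-type islets. Of these 12 markers 1 passed, higher, against the same 0.636% of all genes. The part of these cells in the Csn3 difference was not tested.

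The probe sets of Csn3 did not read alike. The dimmer one, 1451851_a_at, read 3.87 and 4.23 in Irs2-/- islets on tungstate and 4.10 and 4.04 in untreated Irs2-/- islets, against 4.09 and 4.00 in treated and 4.09 and 3.90 in untreated wild-type islets. Its mean over all arrays lies at percentile 7.02 of the probe sets, and its groups overlap. With the mean of both probe sets the treated genotype difference of Csn3 was 1.43. The sources used here do not say which transcripts the 2 probe sets detect.

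**Figure D1:**
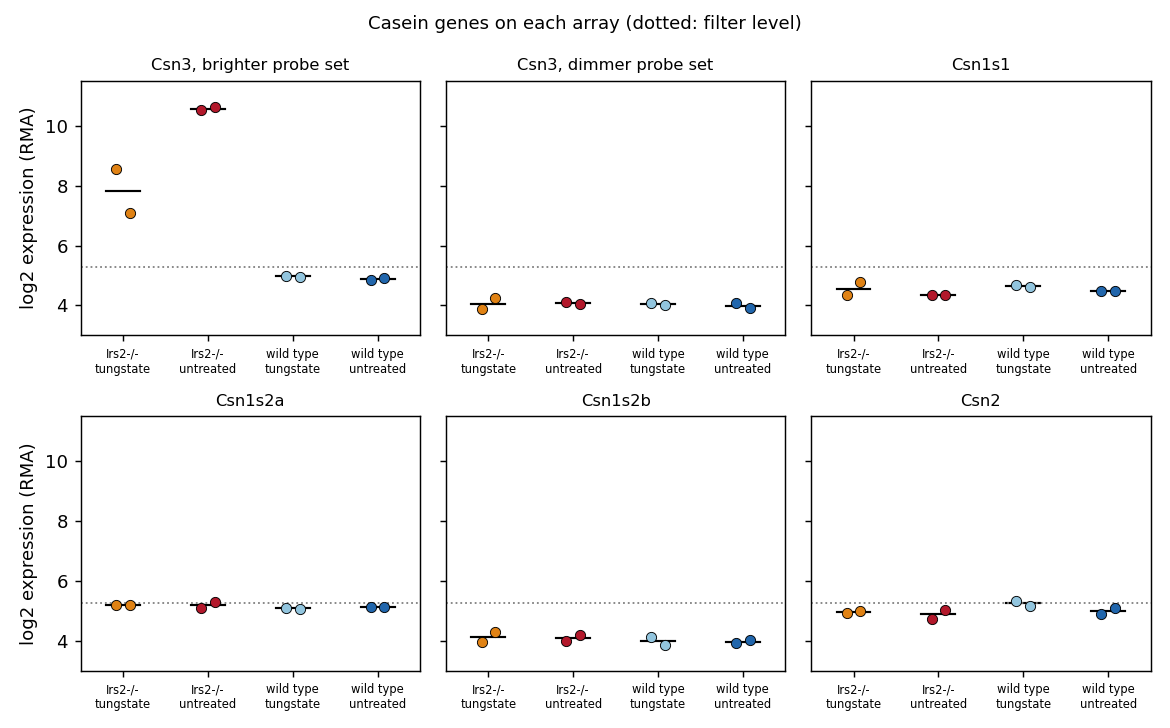
Log2 expression (y axis) of the 2 Csn3 probe sets and of the other 4 caseins on each array, by group (x axis); points are arrays, bars are group means and the dotted line is the filter level of 5.27. Csn3 rises above the line with its brighter probe set in the Irs2-/- groups, and the other caseins stay between 3.87 and 5.34 in all groups.

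The other caseins did not share the Csn3 pattern. Csn1s1, Csn2, Csn1s2a and Csn1s2b, which encode the calcium-sensitive caseins of milk, read between 3.87 and 5.34 over all 8 arrays. Their means were under the filter level, and in a fit without the filter limma's adjusted p for the untreated genotype difference was 0.638 to 0.707. Csn2, which encodes beta-casein, read 4.93 and 4.99 in Irs2-/- islets on tungstate and 4.73 and 5.03 in untreated Irs2-/- islets. It read 5.34 and 5.16 in treated and 4.91 and 5.11 in untreated wild-type islets. Its Irs2-/- arrays were thus not above those of the wild type.

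Genes beside Csn3 on the chromosome showed no difference of that size either. In the RefSeq gene order the 5 nearest measured genes on one side were Odam, Prr27, Csn1s2b, Csn1s2a and Csn2, and the 5 on the other were Cabs1, Smr3a, Smr2, Prol1 and Amtn. Over the 10 genes and 8 arrays the values ran from 3.87 to 5.82. Untreated Irs2-/- minus untreated wild type lay between -0.16 (Smr3a) and 0.19 (Prr27), against 5.69 for Csn3. Only Prr27 was bright enough to be tested. Odam, an enamel-associated protein gene, read 4.13 and 4.26 in Irs2-/- islets on tungstate, 4.07 and 4.15 in untreated Irs2-/- islets, 4.05 and 4.09 in treated and 3.97 and 4.14 in untreated wild-type islets.

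**Figure D2:**
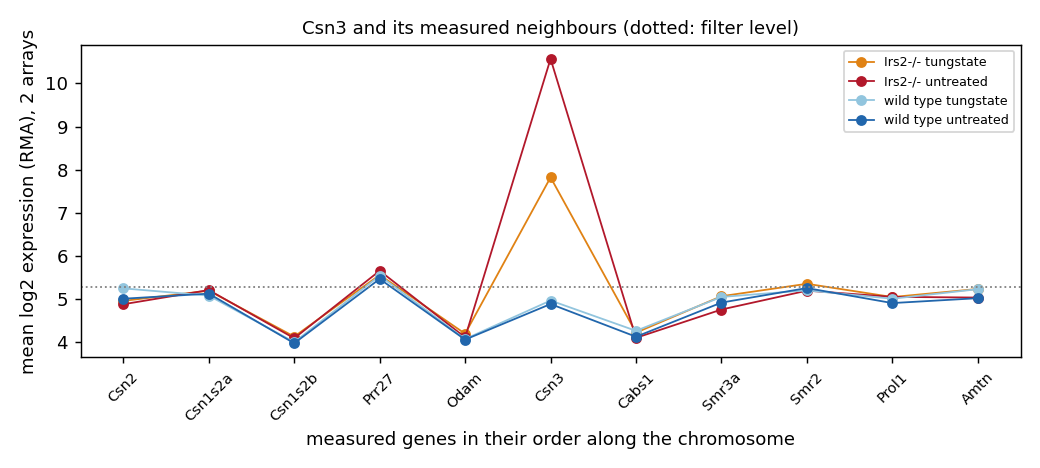
Mean log2 expression of 2 arrays (y axis) for Csn3 and the 5 nearest measured genes on each side in RefSeq gene order (x axis, not to scale), a line per group; the dotted line is the filter level of 5.27. Csn3 alone stands above 5.82, at 10.57 in untreated and 7.82 in treated Irs2-/- islets.

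STAT5 binds DNA at palindromes written TTCNNNGAA, and the promoter windows of Cish, Csn1s1 and Csn2 are shown because these are classical STAT5 targets whose values can be set beside Csn3. Each window is the RefSeq sequence (GRCm38.p6) from 250 bases before to 50 after a gene start, on the strand of the gene, with matches to TTCNNNGAA in capitals. The motif reads the same on both strands, and it was the only motif searched.
Cish, chr9:107296409-107296708, plus strand: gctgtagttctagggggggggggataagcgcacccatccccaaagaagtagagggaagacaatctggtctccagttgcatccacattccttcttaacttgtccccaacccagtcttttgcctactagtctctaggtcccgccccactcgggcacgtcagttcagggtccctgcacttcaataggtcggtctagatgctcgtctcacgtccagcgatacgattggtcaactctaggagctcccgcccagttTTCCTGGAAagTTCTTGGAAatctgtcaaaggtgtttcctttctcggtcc
Csn1s1, chr5:87665958-87666257, plus strand: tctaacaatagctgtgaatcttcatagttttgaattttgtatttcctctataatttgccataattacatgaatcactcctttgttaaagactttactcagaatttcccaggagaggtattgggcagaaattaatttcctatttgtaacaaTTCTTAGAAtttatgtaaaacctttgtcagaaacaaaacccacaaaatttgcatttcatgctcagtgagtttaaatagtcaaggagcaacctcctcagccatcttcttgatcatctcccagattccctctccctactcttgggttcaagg
Csn2, chr5:87699376-87699675, minus strand: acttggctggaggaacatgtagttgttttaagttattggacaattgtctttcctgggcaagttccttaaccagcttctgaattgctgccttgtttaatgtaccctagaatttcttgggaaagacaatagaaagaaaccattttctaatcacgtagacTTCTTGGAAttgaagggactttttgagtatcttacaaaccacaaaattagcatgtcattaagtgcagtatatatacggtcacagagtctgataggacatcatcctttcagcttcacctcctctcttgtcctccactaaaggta
The Cish matches, TTCCTGGAA and TTCTTGGAA, begin at bases 1 and 12 after the start, that of Csn1s1 at -100 and that of Csn2 at -93. The table holds windows for 6 of the 8 genes, 11 in all, and 2 of these (Cish and 1 of the 3 of Prlr) hold the motif, against 8.3% of 32851 windows of the same length. Csn3 and Socs2 have no window there.

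The hormones that would act through these receptors gave little signal in the islets. Of 14 listed prolactin family and growth hormone genes, 10 had a probe set, and 9 of those, Prl among them, read between 3.15 and 4.88 on every array. Prl encodes prolactin and read 4.66 and 4.88 in Irs2-/- islets on tungstate and 4.52 and 4.49 in untreated Irs2-/- islets, against 4.33 and 4.575 in treated and 4.41 and 4.40 in untreated wild-type islets. The tenth, Gh, was tested and passed in no contrast. Circulating hormones were not measured.

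Ghr encodes the growth hormone receptor, and its probe sets went different ways. The brightest, 1417962_s_at, read 11.48 and 11.70 in Irs2-/- islets on tungstate and 11.56 and 11.53 in untreated Irs2-/- islets, against 11.77 and 11.69 in treated and 11.99 and 11.66 in untreated wild-type islets. In treated mice the genotype difference of Ghr was -0.14 ± 0.14 (limma adjusted p = 0.714), and the groups overlap. The next probe set, 1451501_a_at, read 9.48 and 9.40 in Irs2-/- islets on tungstate and 10.09 and 10.18 in untreated Irs2-/- islets, against 9.14 and 8.98 in treated and 9.11 and 9.20 in untreated wild-type islets. On it the Irs2-/- arrays all lay above the wild-type arrays and the untreated ones highest, the group order of Csn3. It is named here after its values were seen. In a fit over 27022 probe sets its treated genotype difference was 0.38 ± 0.12 (limma adjusted p = 0.219) for this Ghr probe set. The third, 1451871_a_at, read 6.68 to 7.24 over all arrays.

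Jak2, the kinase that both receptors share, differed little. It read 8.95 and 9.04 in Irs2-/- islets on tungstate and 9.52 and 9.02 in untreated Irs2-/- islets, against 9.04 and 9.02 in treated and 9.28 and 9.04 in untreated wild-type islets. Replicate 1 of untreated Irs2-/- was the high array, and the groups overlap. The treated genotype difference of Jak2 was -0.03 ± 0.17 (95% interval -0.44 to 0.37, limma adjusted p = 0.948), and its dimmer probe set read highest on the same array, at 7.65.

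The STAT5 genes read lower without Irs2, opposite to Csn3, without passing the test in treated mice. Stat5b read 8.22 and 7.95 in Irs2-/- islets on tungstate and 8.17 and 8.05 in untreated Irs2-/- islets, against 8.66 on both treated and 8.60 on both untreated wild-type arrays. No Irs2-/- array reached a wild-type array. In treated mice the Stat5b difference was -0.58 ± 0.12 (95% interval -0.86 to -0.29, limma adjusted p = 0.076). In untreated mice it was -0.49, and tungstate minus untreated was -0.03 ± 0.12 in Irs2-/- islets (limma adjusted p = 0.949). Its dimmer probe set, 1422102_a_at, read 5.95 and 6.33 in treated and 5.99 and 6.14 in untreated Irs2-/- islets, against 6.14 and 6.23 in treated and 5.92 and 6.18 in untreated wild-type islets, with groups that overlap.

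Stat5a read 6.17 and 6.45 in Irs2-/- islets on tungstate and 6.42 and 6.11 in untreated Irs2-/- islets, against 6.82 and 6.61 in treated and 6.64 and 6.57 in untreated wild-type islets. Here too the 4 Irs2-/- arrays lay below the 4 wild-type arrays. The treated genotype difference of Stat5a was -0.41 ± 0.16 (limma adjusted p = 0.25), and the dimmer probe set read below 5.27 on every array. The mean of 13 islet endocrine markers was also lower without Irs2, at 12.68 and 12.95 on tungstate and 12.55 and 12.64 untreated, against 13.16 and 13.10 in treated and 13.18 and 13.10 in untreated wild-type islets. The single markers went both ways. In untreated mice 5 of the 13 passed limma's test as lower without Irs2 (8.52% of all genes). Chgb (0.57) and Pcsk1 (0.59) passed as higher (8.27% of all genes), and Ins2 differed by -0.03. The part of the endocrine marker level in the STAT5 values was not tested. In whole islets fewer cells of a type and less RNA per cell cannot be told apart.

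On their brightest probe sets the feedback inhibitors, which STAT5 induces, did not follow Csn3. Socs2 read 9.87 and 10.10 in Irs2-/- islets on tungstate and 9.65 and 9.47 in untreated Irs2-/- islets, against 9.64 and 9.42 in treated and 9.71 and 9.87 in untreated wild-type islets. The untreated Irs2-/- arrays, where Csn3 peaked, were below the untreated wild-type arrays. With tungstate the Socs2 difference was 0.42 ± 0.14 in Irs2-/- islets (limma adjusted p = 0.264) and -0.26 ± 0.14 in wild-type islets (limma adjusted p = 1). In treated mice Socs2 was 0.46 ± 0.14 higher in Irs2-/- islets (95% interval 0.13 to 0.79, limma adjusted p = 0.17). Its next probe set, 1418507_s_at, read 8.42 and 8.96 in Irs2-/- islets on tungstate and 8.43 and 8.33 in untreated Irs2-/- islets, against 8.46 and 8.23 in treated and 8.69 and 8.73 in untreated wild-type islets. The dimmer Socs2 probe sets went different ways. On 1438470_at, whose mean of 5.07 is under the filter level, Irs2-/- arrays read 5.13 to 5.54 and wild-type arrays 4.66 to 5.08. On 1446085_at the untreated means were 5.74 without Irs2 and 6.36 in the wild type. On 1442586_at and 1441476_at the genotypes overlapped.

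Cish varied more between arrays of a group than between groups. It read 8.03 and 9.10 in Irs2-/- islets on tungstate and 8.82 and 8.50 in untreated Irs2-/- islets, against 8.83 and 7.55 in treated and 7.97 and 9.28 in untreated wild-type islets. All 4 groups overlap. The treated genotype difference of Cish was 0.38 ± 0.55 (limma adjusted p = 0.809), with an interval from -0.90 to 1.65 that is wide on both sides of 0. Cish has a single probe set.

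**Figure D3:**
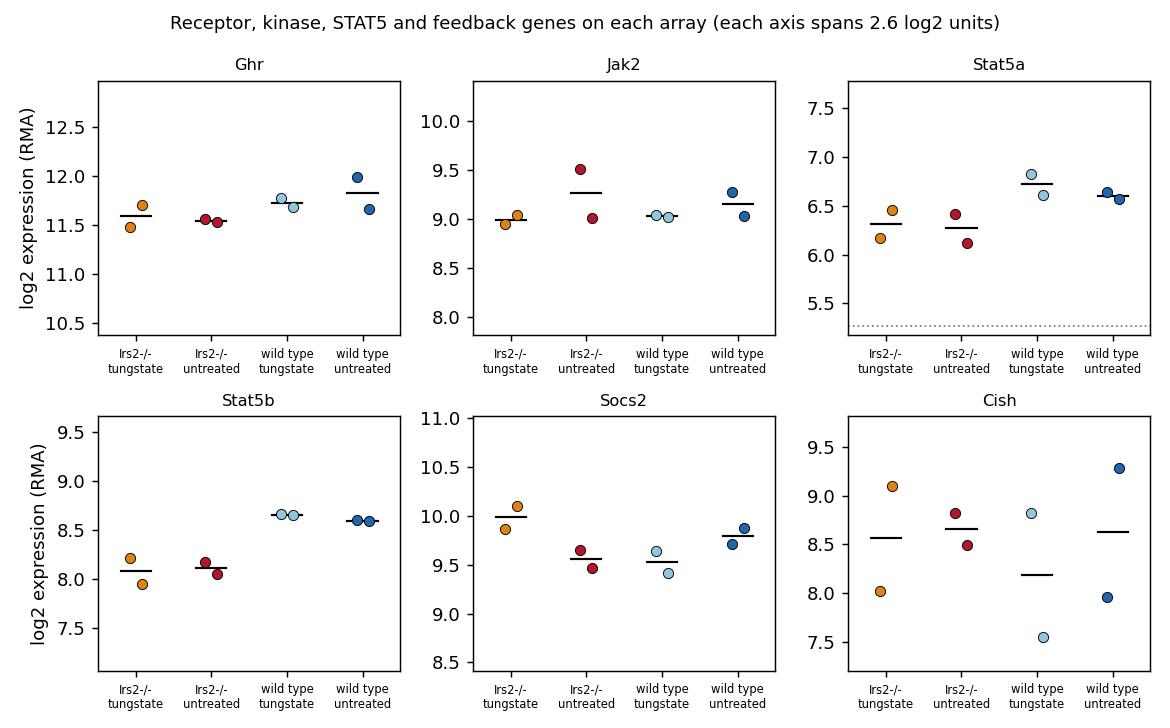
Log2 expression (y axis, 2.6 units in each panel) of Ghr, Jak2, Stat5a, Stat5b, Socs2 and Cish on each array, by group (x axis); points are arrays and bars are group means. Stat5b separates the genotypes, at 7.95 to 8.22 in Irs2-/- and 8.60 to 8.66 in wild-type islets, and Cish spreads widely within groups.

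Besides Csn3, 0 of the other 6 genes passed limma's test in the treated genotype contrast (1.02% of all genes tested passed). Stat5a, Stat5b and Socs2 had an unadjusted p under 0.05 there, as had 16.1% of all genes, and their arrays did not overlap between the groups (3 of 6, against 48.1% of all genes). For tungstate in Irs2-/- islets 0 of the 6 passed (0.494% of all genes), and Socs2 had an unadjusted p under 0.05, as had 13.3% of all genes. For tungstate in wild-type islets 0 of the 6 passed limma's test (0% of all genes), and 0 had an unadjusted p under 0.05 (2.72% of all genes). For the interaction, tungstate's difference in Irs2-/- minus that in wild-type islets, 0 of the 6 passed (0.0224% of all genes), and Socs2 had an unadjusted p under 0.05, as had 6.45% of all genes.

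**Figure D4:**
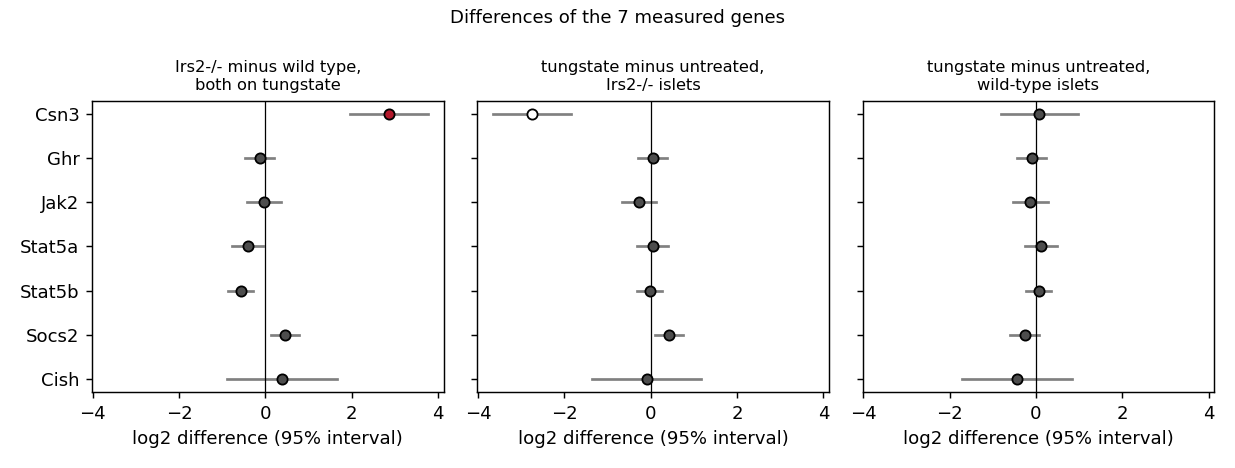
Log2 differences (x axis) of the 7 measured genes (rows) with 95% intervals from the moderated SE, in 3 contrasts; red marks a limma adjusted p under 0.05 and the open point is Csn3 in the contrast that shares arrays with its choice. Csn3 lies at 2.86 in the treated genotype contrast, and the other 6 genes lie between -0.58 and 0.46. Csn3 passed the filter only through its Irs2-/- arrays.

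On their brightest probe sets, none of the other 6 genes ran closely with Csn3 over the arrays. Pearson's r with Csn3 over 8 arrays was 0.28 for Jak2, 0.12 for Cish, -0.10 for Socs2, -0.73 for Ghr, -0.81 for Stat5b and -0.82 for Stat5a. These arrays share their groups and the genotype, so r is a description. By comparison, 290 of 13368 genes had an r of at least 0.95 with Csn3. The 10 highest, between 0.9931 and 0.9971, were Sdf4, which encodes a calcium-binding protein of the Golgi, Fam149a, the endoplasmic reticulum lectin gene Erlec1, Mtarc2, the receptor partner gene Ramp2, the paraoxonase gene Pon3, the granule protein gene Vgf, the protease inhibitor gene Serpini1, the sugar transporter gene Slc50a1 and Tmem176a. Vgf read 9.77 and 9.33 in Irs2-/- islets on tungstate and 10.87 on both untreated Irs2-/- arrays, against 7.58 and 7.75 in treated and 7.60 and 7.68 in untreated wild-type islets. The 3 lowest were Enpp5 (-0.9971), Zdhhc2 (-0.9952) and Atf5 (-0.9936), a stress-response transcription factor gene, which ran opposite to Csn3.

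A wider set of 129 pathway genes, in 7 lists without the 8 genes above, had 116 with a probe set and 85 tested. In untreated mice 16 of the 85 differed between the genotypes, 8 higher and 8 lower without Irs2, which is 18.8% against 16.8% of all genes tested (8.27% higher and 8.52% lower). The median difference was 0.10, against -0.01 over all genes, and limma's adjusted p was under 0.05 for all 16. Igf1 and Csf2rb, among the 8 higher, passed the filter only through their Irs2-/- arrays. Nothing further is read from this count. For tungstate in Irs2-/- islets 1 of 85 passed, Bcl6 (1.18%, against 0.494% of all genes). For tungstate in wild-type islets, the treated genotype contrast and the interaction 0 of 85 passed (0%, 1.02% and 0.0224% of all genes). An unadjusted limma p under 0.05 was found for 2 of the 85 with tungstate in wild-type islets (2.72% of all genes). It was found for 16 in the treated genotype contrast (16.1% of all genes) and for 6 in the interaction (6.45% of all genes). These 3 shares are close to those over all genes. The shares were larger than over all genes for tungstate in Irs2-/- islets, with 23 of the 85 (13.3% of all genes). The same held for genotype in untreated mice, with 34 of the 85 (33.2% of all genes). The lists were chosen with earlier results of these data known, and they hold receptor genes of immune cells. No excess of the pathway is therefore read from these shares.

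Among 17 genes of milk and lactation 9 were bright enough to be tested. In untreated mice 2 rose and 1 fell without Irs2 (33.3%, against 16.8% of all genes). Mfge8, a milk fat globule protein that also marks dying cells for uptake, read 9.52 and 8.89 in Irs2-/- islets on tungstate and 10.74 and 10.27 in untreated Irs2-/- islets, against 8.59 and 8.28 in treated and 8.83 and 7.92 in untreated wild-type islets. The untreated Irs2-/- arrays are the highest and the treated ones lie between, and the untreated genotype difference of Mfge8 was 2.13 ± 0.33 (limma adjusted p = 0.00745). Xdh, xanthine dehydrogenase of the milk fat globule, rose by 0.81 ± 0.21 (limma adjusted p = 0.0356), and Atp2b2, the calcium pump gene that loads milk with calcium, fell by 0.49 ± 0.13 (limma adjusted p = 0.0352). The milk genes Wap and Lalba read 5.18 to 5.80 on all arrays and passed in no contrast. Epithelial markers of the mammary gland and skin, 9 with a probe set including Krt14, Krt15, Krt17 and Trp63, read 4.43 to 5.80 on all arrays. The mean of these 9 ran from 4.97 to 5.22 over all arrays. Macrophages also express Mfge8, and their markers were highest in untreated Irs2-/- islets (13 of 13 tested markers rose there, against 8.27% of all genes). Cd68, 1 of the 13, had wild-type means of 5.02 treated and 5.26 untreated, under the filter level. Cd68 was thus tested only through its Irs2-/- arrays. The part of macrophages in the Mfge8 value was not tested.

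The list of islet genes that change in pregnancy or with lactogens in rodents had 25 genes, 16 of them tested. In untreated mice 1 rose and 3 fell without Irs2 (25%, against 16.8% of all genes). The transcriptional repressor Bcl6 rose by 0.78 ± 0.20 (limma adjusted p = 0.0384). The cyclin D2 gene Ccnd2 (-0.86 ± 0.11), the glucose transporter gene Slc2a2 (-2.30 ± 0.36) and the beta cell factor gene Pdx1 (-0.74 ± 0.16) fell, with limma adjusted p of 0.00399, 0.00817 and 0.0214. Bcl6 read 5.57 and 5.80 in Irs2-/- islets on tungstate and 7.37 and 6.90 in untreated Irs2-/- islets, against 6.60 and 6.14 in treated and 6.42 and 6.30 in untreated wild-type islets. Bcl6 is also known as a gene that STAT5 represses. With tungstate Bcl6 fell by 1.45 ± 0.20 in Irs2-/- islets (limma adjusted p = 0.0351, 0.494% of all genes), to below every wild-type array. That call was lost on the arrays compared alone, with array weights, with the mean of its probe sets and with the lymphocyte covariate, and it was lost without either treated wild-type array, either treated Irs2-/- array or untreated Irs2-/- replicate 1.

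Tph1, the best known lactogen target of rodent islets, is singled out after its values were seen. It read 4.49 and 4.46 in Irs2-/- islets on tungstate and 5.62 and 5.82 in untreated Irs2-/- islets, against 4.30 and 4.27 in treated and 4.26 and 4.31 in untreated wild-type islets. Only the untreated Irs2-/- arrays lay above 5.27, the group in which Csn3 was highest. Its mean was under the filter level, so Tph1 was not tested in the main fit. In treated islets all 4 Tph1 values were below that level. A fit without the filter gave an untreated genotype difference of 1.44 for Tph1 (limma adjusted p = 0.000738). With tungstate the difference of Tph1 in Irs2-/- islets was -1.245 there (limma adjusted p = 0.0044). Its treated genotype difference was 0.19 (limma adjusted p = 0.539). Tph1 was singled out from these values and exceeded the filter level only in untreated Irs2-/- islets. The sizes are thus not exact, and nothing further is read from the p-values. The serotonin enzyme of neurons, Tph2, read 3.97 to 4.78 on all arrays.

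**Figure D5:**
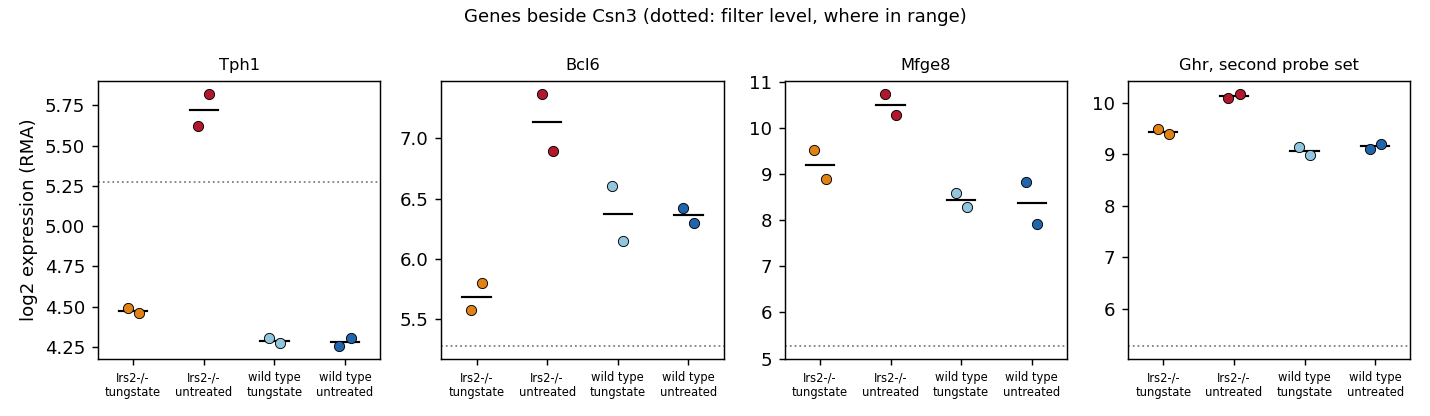
Log2 expression (y axis, own scale in each panel) of Tph1, Bcl6, Mfge8 and the Ghr probe set 1451501_a_at on each array, by group (x axis); points are arrays, bars are group means and the dotted line is the filter level of 5.27. Untreated Irs2-/- islets are highest in every panel, and Bcl6 on tungstate lies below the wild type.

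Known STAT5 targets of other tissues had 16 tested genes, of which 2 rose and 0 fell in untreated mice without Irs2 (12.5%, against 16.8% of all genes). They were Bcl6 and the growth factor gene Igf1, a growth hormone target in liver. Igf1 read 6.50 and 5.78 in Irs2-/- islets on tungstate and 6.44 and 6.45 in untreated Irs2-/- islets, against 4.75 and 4.88 in treated and 5.58 and 4.93 in untreated wild-type islets. The Irs2-/- arrays all lay above the wild-type arrays, and the untreated difference of Igf1 was 1.19 ± 0.27 (limma adjusted p = 0.0239). The wild-type means of Igf1, 4.82 treated and 5.26 untreated, are below the filter level. Igf1 passed the filter only through its Irs2-/- arrays, so the size is not exact and nothing further is read from the p-value. Socs1 and Socs3, further inhibitors of JAK kinases, were tested and passed in no contrast. Socs3 was highest at 8.99 on untreated Irs2-/- replicate 1, the array that was also high for Jak2 and had the highest lymphocyte marker level, 8.47.

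Of the other JAK-STAT kinases and transcription factors 0 of 7 tested passed limma's test in any contrast (16.8% of all genes in untreated mice). Among 25 tested regulators and adaptors of JAK2 and STAT5, 0 rose and 3 fell in untreated mice without Irs2 (12%, against 16.8% of all genes). These were Socs4 (-0.53 ± 0.14), the adaptor gene Shc1 (-0.45 ± 0.12) and Cul5, the ubiquitin ligase scaffold gene of the SOCS proteins (-0.42 ± 0.12), at limma adjusted p of 0.0372, 0.0429 and 0.0454.

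Other receptors that use JAK2 or STAT5 had 15 tested genes, and in untreated mice 4 rose and 1 fell without Irs2 (33.3%, against 16.8% of all genes). Csf2rb, the shared chain of the GM-CSF and interleukin receptors of myeloid cells, read 5.66 and 5.82 in Irs2-/- islets on tungstate and 8.73 and 7.45 in untreated Irs2-/- islets, against 5.12 and 4.60 in treated and 6.03 and 4.94 in untreated wild-type islets. Untreated Irs2-/- arrays are the highest, as for the macrophage markers, and the difference of Csf2rb was 2.61 ± 0.46 (limma adjusted p = 0.0108). The wild-type arrays of Csf2rb average below the filter level, so it passed the filter through its Irs2-/- arrays. The size is therefore not exact, and nothing further is read from the p-value. The TSLP receptor gene Crlf2 (1.15 ± 0.14), the interleukin receptor gene Il4ra (0.72 ± 0.13) and the interferon receptor gene Ifngr1 (0.63 ± 0.18) rose as well. Csf2ra, whose protein pairs with that of Csf2rb, fell by 0.70 ± 0.18 (limma adjusted p = 0.0345). For Crlf2, Il4ra and Ifngr1 limma's adjusted p was 0.00364, 0.0117 and 0.0486. Immune cells carry several of these receptors, and their part in these differences was not tested.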

How the data were processed

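The deposited log2 values are Affymetrix probe set intensities that the authors normalized by RMA with affy in R 2.7.0, per the submitters' processing notes. They were used as deposited, 1 value per probe set and array, and the number of arrays (2 per group) limits the precision. Of 45037 probe sets besides controls, 34945 name 1 gene in the platform annotation, 932 several and 9160 none. The genes followed and the pathway and marker lists were chosen with earlier results of these data known. A mean per group was fitted to 13369 genes with limma 3.58.1 in R 4.3.3, with moderated errors and Benjamini-Hochberg adjustment over all of them at 0.05, for 5 contrasts. Named genes were the 8 genes and Irs2, up to 4 genes per list and contrast with the smallest p past the threshold, the 10 genes most like Csn3 and the 3 least, and 5 neighbours on each side of Csn3. Other genes given with values (other caseins, Prl, Wap, Lalba, Glycam1, Tph1, Tph2 and Socs3) were named after their values were seen. On simulated arrays of the treated genotype contrast (13369 genes, 200 changed, 10 simulations) the fit recovered 13.4% of log2 changes of 0.5, 67.6% of 1 and 96.6% of 2, with 4.8% false calls. Alternatives were another filter, variance moderation, fewer arrays, a replicate block, array weights, centring, quantile normalization, the mean of probe sets, marker levels as covariates, another threshold and leaving out each array.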

Additional observations from a re-analysis of the deposited data

Results flagged for a closer look

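The difference with tungstate ran opposite ways in the genotypes for Csn3, lower on both treated arrays in Irs2-/- islets and slightly higher on both in wild-type islets, where all values were below 5.27. The difference of these differences was -2.83 on the log2 scale. It uses the untreated Irs2-/- arrays that chose Csn3, so it is given as a description with no test. Socs2 ran the other way, higher on both treated arrays in Irs2-/- islets and lower on both in wild-type islets, with a difference of differences of 0.686 (limma adjusted p = 0.683).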

How the results depend on the processing

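No count for tungstate in wild-type islets moved. Where a count of the 7 genes holds Csn3 and the contrast uses the untreated Irs2-/- arrays, it records the fit and supports nothing, since those arrays chose Csn3. Igf1 and Csf2rb passed the filter only through their Irs2-/- arrays, so counts that hold them only record the fit as well. On the arrays compared alone, the other pathway genes past the threshold in untreated mice were 10 (main count 16), those for tungstate in Irs2-/- islets 0 (main count 1), and Csn3 lost its calls, leaving 0 of the 7 genes for tungstate in Irs2-/- islets and 0 in the treated genotype contrast. With the lymphocyte covariate all 4 of these counts were 0. With trended and robust moderation 0 of the 7 genes passed for tungstate in Irs2-/- islets. For tungstate in Irs2-/- islets the other pathway genes past the threshold were 2 without a filter (Bcl6, Tph1), 0 with array weights, 0 with the mean of probe sets, 3 with the acinar covariate and 2 at an adjusted p under 0.1. At that threshold 26 passed in untreated mice, and in the treated genotype contrast 2 of the 7 (Csn3, Stat5b) and 2 other pathway genes (Csf2ra, Igf1). The acinar covariate gave 2 there too (Igf1, Mfge8). Leaving out an array gave 4 to 19 other pathway genes in untreated mice, 0 to 6 for tungstate in Irs2-/- islets and 0 to 4 in the treated genotype contrast, and 0 to 1 of the 7 genes for tungstate in Irs2-/- islets, the treated genotype contrast and the interaction. The low of 4 came without untreated wild-type replicate 2. Same-numbered samples deviated together at r of -0.0658 to 0.418, highest between the untreated groups. With 2 arrays per group this cannot settle whether the numbers pair the samples, and the main fit left them unpaired. A replicate block gave 3 other pathway genes for tungstate in Irs2-/- islets (Bcl6, Csf2rb, Mfge8) and moved no count of the 7 genes.

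Small differences of the other 6 genes turned sign, none past the threshold in either setting, and the cause was not tested. With tungstate in Irs2-/- islets Stat5a was -0.000478 after median centring, Stat5b 0.0511 after quantile normalization and 0.0222 with the mean of probe sets, Ghr -0.212 with that mean, Cish 0.0169 with the acinar covariate and Jak2 0.0968 with the lymphocyte covariate. In wild-type islets Stat5a was -0.00481 with the mean of probe sets. In the treated genotype contrast Jak2 was 0.00777 after quantile normalization and 0.0838 with the acinar covariate, Cish -0.142 with the acinar covariate and Ghr 0.0147 with the mean of probe sets. For the interaction Ghr was -0.135 and Stat5a 0.113 with the mean of probe sets, and Jak2 0.135 and Stat5a 0.128 with the lymphocyte covariate. Leaving out an array gave, for tungstate in Irs2-/- islets, Ghr -0.0649 to 0.158, Stat5a -0.109 to 0.196, Stat5b -0.162 to 0.106 and Cish -0.632 to 0.439, and for tungstate in wild-type islets Ghr -0.264 to 0.0689 and Cish -1.09 to 0.224. It gave, for the treated genotype contrast, Jak2 -0.0789 to 0.0106 and Cish -0.262 to 1.01, and for the interaction Ghr -0.0221 to 0.311, Jak2 -0.391 to 0.11, Stat5a -0.224 to 0.0813, Stat5b -0.223 to 0.0449 and Cish -0.321 to 0.995.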

Other observations

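Glycam1, which encodes a mucin-like protein of milk and of lymph node vessels, is named after its values were seen. It read 4.99 and 10.10 in Irs2-/- islets on tungstate and 11.38 and 8.41 in untreated Irs2-/- islets, against 5.12 and 4.97 in treated and 5.26 and 5.17 in untreated wild-type islets. It was high on 3 of the 4 Irs2-/- arrays and on no wild-type array, and the treated Irs2-/- arrays differed most.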
